A study of Rattus norvegicus with 2 samples.

Results

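The genes of the cartilage collagens II, IX, X and XI were followed cell by cell in the meniscus, a pad of fibrocartilage in the knee joint, of rats. They are Col2a1, Col9a1, Col9a2, Col9a3, Col10a1, Col11a1 and Col11a2, 7 of the 25399 genes listed, and all 7 were matched by symbol. The series holds 1 library from aged and 1 from young meniscus, both of Rattus norvegicus. The sources used here do not give strain, sex, exact age or how many animals were used. The tissue was digested, sorted for viable cells and run on a droplet platform that tags the 3' end of each captured RNA with a unique molecular identifier (UMI), so each count is 1 tagged molecule.

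Collagen II forms the fibrils of cartilage. Collagen XI, built from the products of Col11a1 and Col11a2 with a further chain encoded by Col2a1, lies within these fibrils and limits their width. Collagen IX, built from the products of Col9a1, Col9a2 and Col9a3, sits on the fibril surface. Collagen X is the collagen of hypertrophic cartilage. The inner meniscus resembles hyaline cartilage and the outer part is fibrous and rich in collagen I. In cartilage the transcription factor Sox9, with Sox5 and Sox6, drives many of these genes.

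Levels were read in stromal barcodes, defined as cells with no count of the leukocyte gene Ptprc and at least 10 counts of Dcn, Chad, Col2a1 or Col1a1. Dcn encodes a proteoglycan of fibroblasts, Chad a protein of the cartilage matrix, and Col1a1 a chain of collagen I. The gate held 505 of 6085 filtered aged cells (8.30%) and 205 of 8773 filtered young cells (2.34%). Their summed depth was alike, 3243439 UMIs in the aged and 3309974 in the young library, but the median per cell was 5968 and 15617 UMIs. The makeup of the gate differed: 33 aged and 109 young cells had at least 10 counts of Chad, and 491 and 89 cells had at least 10 of Dcn. No aged cell and 112 young cells reached 10 counts of Col2a1, and 18 young cells entered by Col2a1 alone, so its level in the gate is a description. Of 9 chondrocyte markers all but Matn3 had a count in aged stromal cells and all 9 in young ones, at 6429 and 16909 counts per 1000000 UMIs (CPM). These markers include Chad, a gate gene. With 1 library per age no test was possible, and all 95% intervals cover counting error only. Between the libraries 18 barcodes were shared, none of them stromal.

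Sequence upstream of the start is shown for the collagen IX and XI genes that have an entry in RefSeq's promoter table (build GRCr8), because these genes were found together in the same cells. The 5 members with an entry were Col9a1, Col9a2, Col10a1, Col11a1 and Col11a2. The 250 bases before the start are printed 5' to 3' in the direction of the gene, with capitals marking GGGCGG, the GC box. Col9a1 is at chr9:34081114-34081363 (+ strand), Col9a2 at chr5:139892548-139892797 (+ strand), Col11a1 at chr2:204508886-204509135 (+ strand) and Col11a2 at chr20:4817649-4817898 (- strand).
Col9a1: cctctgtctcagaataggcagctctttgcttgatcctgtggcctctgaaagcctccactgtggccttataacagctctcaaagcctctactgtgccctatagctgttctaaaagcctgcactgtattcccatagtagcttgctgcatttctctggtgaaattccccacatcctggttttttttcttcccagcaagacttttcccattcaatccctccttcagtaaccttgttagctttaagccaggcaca
Col9a2: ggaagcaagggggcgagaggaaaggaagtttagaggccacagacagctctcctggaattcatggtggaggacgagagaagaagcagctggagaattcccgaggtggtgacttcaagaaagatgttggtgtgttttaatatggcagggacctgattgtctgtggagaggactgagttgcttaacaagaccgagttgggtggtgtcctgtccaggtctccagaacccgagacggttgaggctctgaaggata
Col11a1: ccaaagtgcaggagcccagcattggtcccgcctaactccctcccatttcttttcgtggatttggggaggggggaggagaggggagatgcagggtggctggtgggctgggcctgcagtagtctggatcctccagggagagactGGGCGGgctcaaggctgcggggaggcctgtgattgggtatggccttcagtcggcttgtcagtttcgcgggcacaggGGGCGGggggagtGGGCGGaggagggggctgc
Col11a2: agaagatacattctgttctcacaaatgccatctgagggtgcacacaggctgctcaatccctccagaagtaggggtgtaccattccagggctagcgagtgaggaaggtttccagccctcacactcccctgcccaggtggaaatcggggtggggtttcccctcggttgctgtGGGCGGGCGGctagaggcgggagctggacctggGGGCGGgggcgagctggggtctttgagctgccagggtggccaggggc
The motif GGGCGG, searched on both strands, matched 3 times in the window of Col11a1 and 3 times in that of Col11a2, where a pair of matches overlapped, and in no window of the other 3. It matched in 30.5% of 33469 windows of the same length. TATAAA, the TATA box, matched once, 31 bases before the start of Col10a1, and in 12.9% of all windows. The Sox core motifs AACAAT and AACAAAG had no match in the 5 windows, against 10.3% and 5.14% of all windows. The GC share was 65.6% for Col11a1 and 62.8% for Col11a2, against 46.8% for Col9a1, 52% for Col9a2, 41.6% for Col10a1 and a median of 51.2% over all windows.

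Col2a1, which encodes the chain of collagen II, was abundant in the young and nearly missing in the aged library. Young stromal cells held from 0 to 815 counts with a median of 27, and 126 of 205 cells had a count (61.5%, 95% interval 54.4 to 68.2). Aged cells held at most 3 counts, and 7 of 505 cells had a count (1.39%, 0.559 to 2.84). The highest aged cell lay below the young median, but the ranges overlapped, since 79 young cells also had no count. Summed, there were 10 aged and 16668 young counts, or 3.08 CPM (1.48 to 5.67) and 5036 CPM (4960 to 5113). The log2 ratio of aged over young was -10.67 (-11.73 to -9.79). The 5 aged cells with most counts held 8 of the 10, and without the 5 highest cells of each library the ratio was -12.78.

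The collagen IX genes followed the same order. Col9a1 had 1616 counts in young stromal cells (488 CPM), with a median of 2 and a highest value of 49 per cell, and 114 cells had a count. It had no count in aged stromal cells, nor in any other of the 8422 aged barcodes, and was at least 528-fold lower in the aged gate, measured against a floor of 3 counts. Col9a2 had 2919 young counts (882 CPM; median 1, highest 98 per cell) and 4 aged counts in 3 cells. Its log2 ratio was -9.48 (-11.36 to -8.12). Col9a3 had 406 young counts (123 CPM; median 0, highest 27) and 1 aged count, a log2 ratio of -8.64 (-13.94 to -6.15) that rests on this 1 count.

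The collagen XI genes kept the most counts in the aged library. Col11a1 was found in 144 young cells (70.2%, 63.5 to 76.4; median 22, highest 149 counts) and in 39 aged cells (7.72%, 5.55 to 10.4; highest 10). Its summed counts were 5572 young and 105 aged, or 1683 and 32.4 CPM. That is a log2 ratio of -5.70 (-5.99 to -5.42). Col11a2 was found in 127 young cells (median 7, highest 100) and 14 aged cells (highest 11), with 2587 and 38 summed counts. Its log2 ratio was -6.06 (-6.56 to -5.60), and the 5 aged cells with most counts held 73.7% of the aged total. Without the 5 highest cells of each library the ratio of Col11a2 was -7.77. Collagen XI made up 90.5% (84.8 to 94.6) of the 158 aged counts of the 7 genes and 27.4% (26.9 to 27.9) of the 29768 young counts.

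Col10a1 had no count in stromal cells of either library, which by the limit of 3 counts allows a UMI in up to 0.594% of the aged cells and 1.46% of the young cells at these depths. The upper ends of the exact 95% intervals were 0.728% and 1.78%. In whole libraries it had 2 aged counts and 1 young count.

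**Figure D1:**
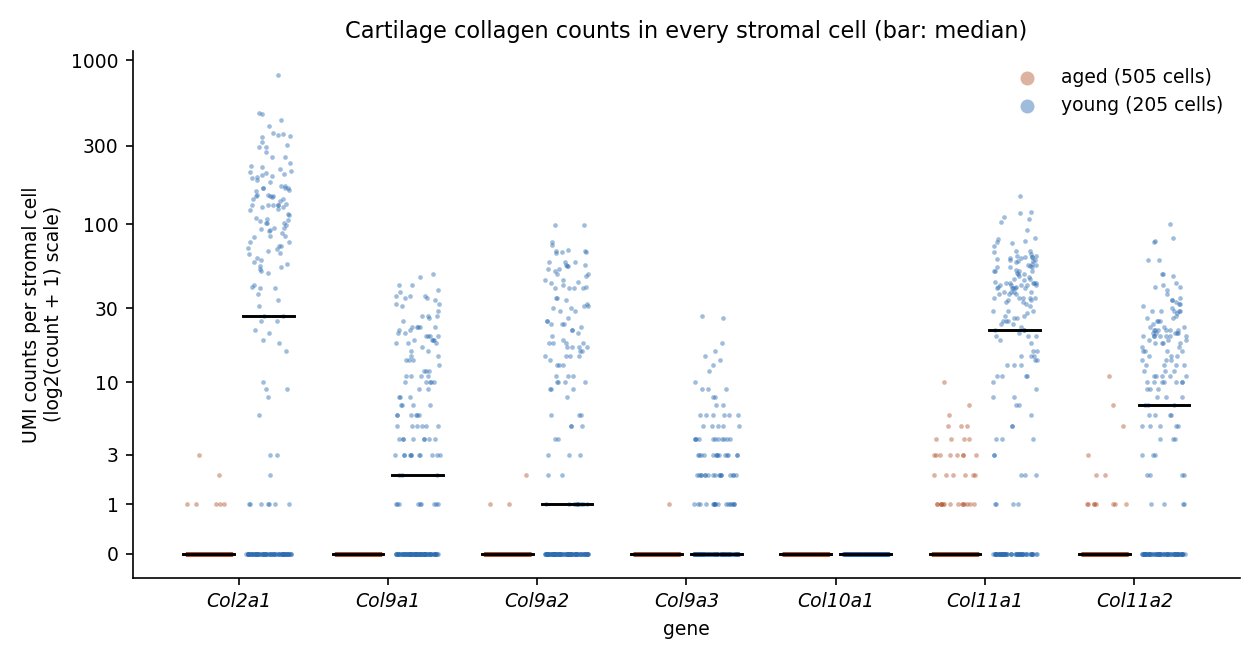
UMI counts per cell of the 7 genes (x axis) in the 505 aged and 205 young stromal cells (points), on a log2(count + 1) scale, with a bar at each median. Young cells spread up to 815 counts of Col2a1, while aged cells reach at most 11 counts of any of the genes; Col10a1 is at 0 throughout.

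All 6 genes with enough counts were at least 2-fold lower in the aged gate, and none was higher. Among all 9332 genes with at least 20 summed counts, 8.66% were at least 2-fold lower and 10.4% at least 2-fold higher, with a median log2 ratio of 0.06. Ranked from the lowest ratio, Col2a1, Col9a2, Col9a1 (at its bound) and Col9a3 took places 1 to 4, Col11a2 place 11 and Col11a1 place 16. Col2a1 helped to choose these cells, and 18 young cells entered by it alone. Its place, and those of genes found in the same cells, are thus a description. The 7 genes summed had 48.7 CPM in aged and 8993 CPM in young stromal cells, a log2 ratio of -7.53 (-7.76 to -7.30). In a gate that did not use Col2a1 (505 aged and 187 young cells) the ratio was -7.43 (-7.67 to -7.20), and all 6 genes were again lower, where 8.25% of 9248 genes were at least 2-fold lower and 10.1% higher. Fewer cells of a type and less RNA per cell cannot be told apart in such sums.

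Cells with at least 10 counts of Chad were compared next, 33 aged and 109 young cells and medians of 6800 and 14994 UMIs. Col2a1 had 10 counts in aged and 14513 in young cells there, or 38.3 and 8724 CPM. Its log2 ratio was -7.83 (-8.89 to -6.95). The young cells spanned quartiles of 41 to 181 Col2a1 counts and the aged cells reached 3 at most. Col9a1 was at least 72.1-fold lower, Col9a2 had a log2 ratio of -6.56 (-8.43 to -5.20) and Col9a3 of -5.67 (-10.98 to -3.18). Col11a1 was at -3.78 (-4.20 to -3.39) and Col11a2 at -3.64 (-4.26 to -3.08). All 6 were at least 2-fold lower here, where 19.7% of 6020 genes were and 9.98% were higher. For the 5 genes with aged counts each ratio was smaller in size than in the whole gate. Every aged stromal count of Col2a1, Col9a2 and Col9a3 lay in these 33 cells.

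The other cartilage genes of the same Chad gate did not all follow. Aged cells held 410 and young cells 469 CPM of Sox9, giving a log2 ratio of -0.20 (-0.50 to 0.10). Comp, a matrix glycoprotein, stood at -0.16 (-0.22 to -0.09). Cytl1, a secreted factor of chondrocytes, was higher in aged cells by 3.72 (3.55 to 3.88) and Cilp, a matrix protein of the middle cartilage layer, by 1.63 (1.51 to 1.75). Acan, the core protein of aggrecan, was at -2.20 (-2.75 to -1.70) and Hapln1, which links aggrecan to hyaluronan, at -3.31 (-3.72 to -2.92). Col1a1 was also lower, at -4.29 (-4.65 to -3.95). Markers of other cell types differed between the 2 libraries in these cells. The 4 synovial lining markers, with Tspan15 at 0 in both and Clic5 at 0 in young, summed to 20334 aged and 9921 young CPM. The fibroblast markers summed to 19561 and 8660 CPM, though their list holds Col1a1, which was lower in aged cells, and the gate gene Dcn. Of 8 fibrous collagens measured in this gate 6 were at least 2-fold lower and 0 higher, against 19.7% and 9.98% of all genes. Their median log2 ratio was -3.26, against -0.20 for all genes. The osteoblast markers, with Sp7 and Dmp1 at 0 in both, summed to 356 and 1009 CPM, the B cell list to 153 and 68.5 CPM and the macrophage list to 23.0 and 63.1 CPM. The erythroid list summed to 1929 and 1774 CPM and the neutrophil list to 245 and 341 CPM, and the endothelial list was at 0 in both. The order of the medians per cell differed for synovial lining, at 4093 aged and 5038 young CPM, and erythroid, at 79.5 and 255 CPM. B cell markers had a count in 9.09% of aged and 32.1% of young cells. Fibroblast, osteoblast, macrophage and neutrophil medians kept the order of the sums. The part of such RNA or cells in the ratios was not tested.

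Cells with at least 10 counts of Prg4, which encodes the joint lubricant lubricin, were nearly equal in number, 104 aged and 111 young. Like numbers do not make like cells, since only 33 of all aged stromal cells reached 10 counts of Chad, against 109 young ones. Among the Prg4 cells Col2a1 had 7 aged and 12783 young counts, a log2 ratio of -10.01. Col11a1 had 53 and 4390 counts, a ratio of -5.55.

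**Figure D2:**
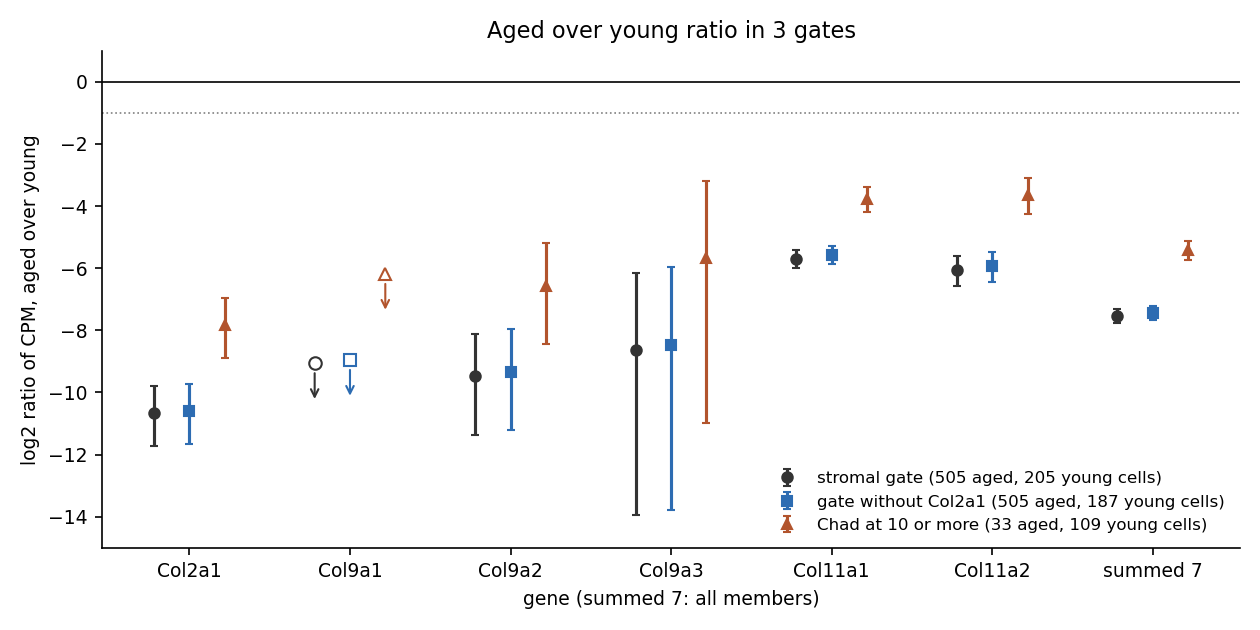
Log2 ratio of CPM, aged over young (y axis), for each gene and their sum (x axis) in 3 gates, with 95% counting intervals; open symbols with arrows are bounds for Col9a1, which had no aged count, and the dotted line marks 2-fold lower. Every ratio lies below that line, from -10.67 for Col2a1 in the stromal gate to -3.64 for Col11a2 in the Chad gate.

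Fibrous cells held little of these genes in either library, and again less in the aged one. With at least 10 counts of Col1a1 and under 10 of Chad (221 aged and 75 young cells), Col2a1 had 0 aged and 31 young counts, 25 of them in 1 cell, and Col9a1 0 and 3. Col11a1 was present in 16 cells of each library, 7.24% of the aged and 21.3% of the young cells. Of its young counts 5 cells held 73.6%. Its levels were 30.8 and 83.0 CPM, giving an aged over young ratio (log2) of -1.43 (-1.96 to -0.92), and Col11a2 had 12 and 87 counts, 7.99-fold (4.35 to 16.1) lower in aged cells. Of these Col11a2 counts 1 aged cell held 11 and 1 young cell 49. Among the 95 aged cells with at least 3 counts of Tnn, which encodes a matrix protein of the tenascin family, Col11a1 had 23 counts in 9 cells and no other member had any. No young cell met this gate. With at least 10 counts of Postn, which encodes periostin, 51 young cells held 33 counts of the 7 genes and 12 aged cells none.

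Within aged cells, the sparse counts of collagen II and IX lay in cells with Chad, mostly beside collagen XI. Col2a1 and collagen IX counts themselves mostly lay in different cells. The 10 aged stromal cells with a count of Col2a1, Col9a2 or Col9a3 had between 21 and 260 counts of Chad and none of Col1a1, and 9 of them had a count of Col11a1 or Col11a2. Of the 7 aged cells with Col2a1, 6 also had Col11a1 and 6 had Col11a2. Of the 39 aged cells with Col11a1, 17 had at least 10 counts of Chad (43.6%, 27.8 to 60.4), against 6.53% of all aged stromal cells, and 33 had no count of Col2a1.

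In young cells the chains nested. All 86 cells with Col9a3 also had Col2a1, Col11a1 and Col11a2, and 85 had Col9a1. Of the 126 cells with Col2a1, 124 had Col11a1, 121 had Col11a2 and 110 had Col9a1. Col2a1 is a gate gene, and 18 of these cells entered by it alone. Without it in the gate 108 cells had Col2a1. Col11a1 reached furthest, with 20 cells that had no count of Col2a1. All 3 collagen IX genes were found together in 78 cells, and these same 78 cells held all 6 detected genes. Both collagen XI genes with Col2a1 were found in 121 cells (59.0%).

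Because depth sets such shares, each cell was thinned to 2000 UMIs, which kept 486 aged and 204 young cells. In 1 random draw 57.8% of young (50.7 to 64.7) and 0.412% of aged cells (0.0499 to 1.48) had Col2a1, 64.2% and 4.32% had Col11a1, and 35.3% and 0% had Col9a1. In cells with at least 1 count of the B cell gene Cd79a the thinned Col2a1 share was 1.49% of young and 0% of aged cells. B cells should lack these genes, but 9 of 3365 such young cells held 1574 of the 1717 unthinned Col2a1 counts. The set is thus not a pure background. That draw put Col11a1 in all 118 young cells with Col2a1, so the exact expectation over all draws is used for pairs. It was 97.7% for Col11a1 among cells with Col2a1, and 18.5% among cells without. It was 98.3% for Col2a1 among cells with Col9a1, and 31.3% among cells without. With Col2a1 left out of the gate these young pairs were at 97.4% and 18.5%, and at 98.0% and 28.3%. For Col2a1 with both collagen XI genes the expectation was 47.7% of young and 0.178% of aged cells, and for all 3 collagen IX genes 11.5% of young cells. In the gate without Col2a1 the young values were 43.9% and 10.0%.

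**Figure D3:**
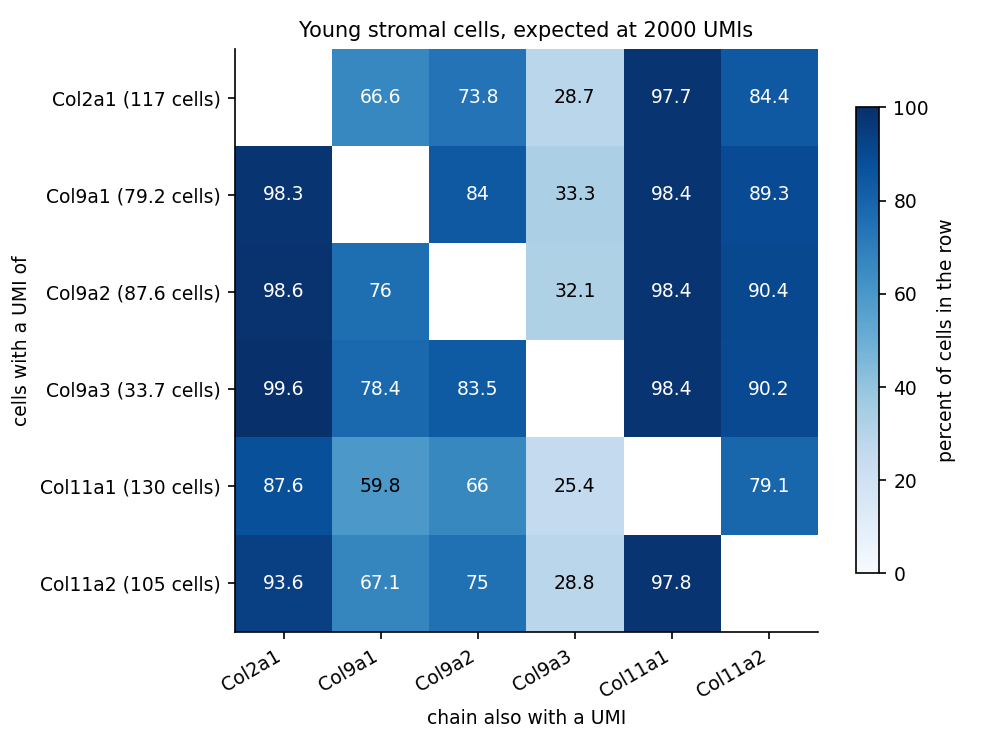
Expected percent of the young stromal cells with a UMI of the row gene that also have one of the column gene, at 2000 UMIs per cell; brackets give the expected number of cells with the row gene among 204. Columns for Col2a1 and Col11a1 are dark throughout, 87.6% or more, while the Col9a3 column stays at 33.3% or less.

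Over the 205 young cells the members rose and fell together as a description, with Spearman correlations of 0.69 to 0.88 on log2(CPM + 100). The cells share 1 library, differ in depth and type, and were chosen in part by Col2a1. Among the 112 cells with at least 10 Col2a1 counts the correlations were 0.26 for Col9a2 with Col9a3 to 0.67 for Col9a1 with Col9a2. Sorted by Col2a1, the 79 cells without a count had 120 CPM of Col11a1 and 8.21 CPM of Col9a1, and the 41 cells with 150 or more had 3288 and 1240 CPM. Col1a1 ran the other way, from 51023 to 1679 CPM. Both Col2a1 and Col1a1 are gate genes, and a cell without Col2a1 could enter only by another gate gene. The contrast between them is thus partly set by the gate. Sox9 stood at 60.5 CPM in cells without Col2a1, 205 CPM at 1 to 9 counts and 566 CPM at 10 to 49 counts. It was no higher above that, at 508 CPM in the 54 cells with 50 to 149 counts and 549 CPM in the top group. The groups of 14 and 17 cells in between are thinly filled.

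**Figure D4:**
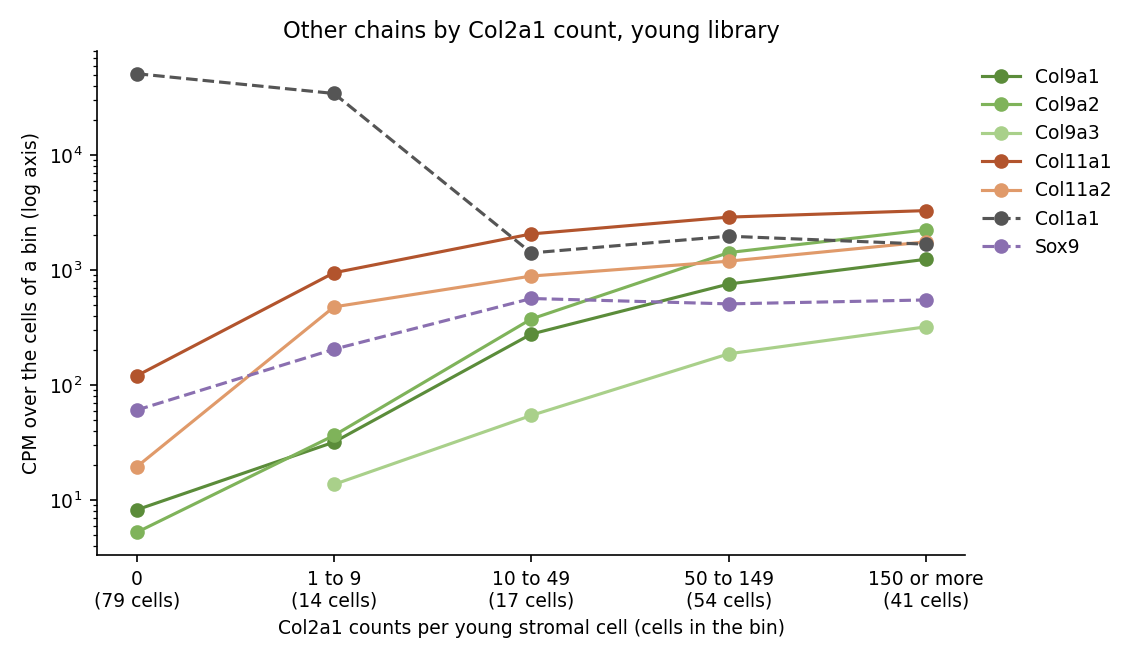
CPM (log axis) of the other chains, Col1a1 and Sox9 in young stromal cells grouped by their Col2a1 counts (x axis, with the number of cells). The collagen IX and XI genes lie highest at 150 or more Col2a1 counts, while Col1a1 falls from 51023 to 1679 CPM; Col9a3 had no count in the first group and is not drawn there.

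The counts of collagen IX fell unevenly on its chains. Of 4941 collagen IX counts 32.7% were of Col9a1, 59.1% of Col9a2 and 8.22% of Col9a3, and over 91 cells with at least 10 such counts the medians were 31.5%, 60.2% and 5.80%, and for Col9a2 the upper quartile was 67.6%. These are shares of captured 3' tags, and capture can differ between genes. Col11a2 made up 31.7% (30.7 to 32.7) of 8159 young and 26.6% (19.5 to 34.6) of 143 aged collagen XI counts, so the aged interval holds the young value. In the Chad gate it was 31.2% of young and 33.3% (23.1 to 44.9) of aged counts. Per young cell its median was 31.0% over 112 cells with at least 10 Col2a1 counts and 16.4% over 15 cells with fewer.

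The genes whose levels ran closest to the sum of the 7 members over young stromal cells, among 7324 genes found in at least 10% of them, were Snorc (Spearman 0.853), Mia (0.842), Mfge8 (0.834), Hapln1 (0.832), Col16a1 (0.821), Acan (0.814), Ucma (0.800) and Sparc (0.795). Snorc and Ucma encode small proteins of cartilage, Mia a secreted protein of chondrocytes and Sparc a collagen-binding matrix protein. Over the 505 aged cells the same correlations were 0.52 for Snorc, 0.36 for Acan, 0.34 for Mia, 0.33 for Hapln1, 0.30 for Ucma, 0.22 for Mfge8, 0.14 for Col16a1 and 0.00414 for Sparc. The aged sum rests on 158 counts, so a low value there is no finding.

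The wider pathway was read from 52 genes, of which 46 had enough counts in the stromal gate. At least 2-fold lower in aged cells were 26 of them and 4 were higher, against 8.66% and 10.4% of all genes, with a median log2 ratio of -1.42 against 0.06. The same shares of all genes apply to the groups of the list that follow. Of 6 measured transcription factors Sox9 (-2.55, -2.79 to -2.32), Sox6 (-2.08) and Mef2c (-1.41) were lower. Of 16 partners in the cartilage matrix 13 were lower, among them Snorc (-4.53), Cilp2 (-4.25), Ucma (-2.62) and Chad (-2.12), while Comp was at -0.35 (-0.38 to -0.32). Chad is a gate gene and defines the Chad gate, so its ratio in either gate is partly set by the selection. Of 14 genes of procollagen processing 8 were lower, including the collagen chaperone Serpinh1 (-1.48, -1.56 to -1.41), while Pcolce, which enhances removal of the procollagen end, was at -0.74. Of 5 collagen receptors Itga1 (-1.78) and Itga10 (-1.66) were lower and Ddr2 (1.10) was higher. Of 5 collagen-cleaving proteases none was lower, and Mmp13 (2.31, 1.66 to 3.03), Mmp3 (1.49, 1.38 to 1.59) and Mmp9 (2.03, 0.57 to 3.80) were higher. In the Chad gate 19 of 42 measured genes were lower and 3 higher, against 19.7% and 9.98% of all genes, with a median of -0.97 against -0.20 for all genes. The 3 were Cytl1, Cilp and Mmp3, and Sox9, Comp and Ucma were then within 2-fold. Of the 3 proteases measured there Mmp14, a membrane-bound collagenase, had 0 aged and 85 young counts and was at least 4.45-fold lower, and the median over the 3 was -0.10.

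Beside Col10a1, 8 of 10 genes of a hypertrophy list were measured, and 4 were lower and 1 higher, against 8.66% and 10.4% of all genes. Lower in the aged gate were Ibsp (-3.49), Spp1 (-2.41), Alpl (-1.57) and Mef2c (-1.41), and Mmp13 was higher. The osteoblast markers, which hold Ibsp and Alpl too, summed to 502 aged and 4144 young CPM with Sp7 at 0 in both, and their part in this was not tested. In the Chad gate 1 of 6 measured hypertrophy genes was lower and 0 were higher, against 19.7% and 9.98% of all genes. Their median there was -0.83, against -0.20 for all genes. Of 9 fibrous collagens measured in the whole stromal gate 6 were at least 2-fold lower, against 8.66% of all genes, with a median of -1.33. Col1a1 was at -3.28 (-3.31 to -3.24), Col3a1 at -2.21 and Col6a2 at -1.19, while Col14a1 was at 0.58 (0.43 to 0.73). Col1a1 is a gate gene, so its ratio is partly set by the gate.

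Markers of other cells in the whole stromal gate summed, aged and young, to 27750 and 47313 CPM for fibroblasts, 6601 and 6121 for synovial lining, 2.77 and 27.8 for mural cells and 0.617 and 0 for endothelium. For blood cells the sums were 195 and 119 CPM for B cells, 1291 and 1077 for neutrophils, 99.0 and 90.3 for macrophages, 7.71 and 2.72 for T or NK cells and 3590 and 1010 for erythroid cells. Medians per cell ran the other way for fibroblasts (27778 and 5278 CPM), synovial lining (343 and 1181) and neutrophils (91.5 and 281). They also did for macrophages (0 and 56.9) and erythroid cells (0 and 247). B cell medians (92.1 and 0) kept the order, and the others were 0 in both. The fibroblast list holds the gate genes Dcn and Col1a1. The part of these cells in the results was not tested.

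Free RNA was gauged in cells with Cd79a, which encodes a part of the B cell receptor. With at least 3 counts there were 24 aged cells, with 1 count of Col9a2 and none of the others, and 384 young cells with 521 Col2a1 counts (110 CPM). In the young group 3 cells held 502 of these counts. Over all 384 cells the level equalled 2.19% of the stromal level. Without cells that also had a gate gene at 10 counts, 378 young cells held 19 Col2a1 counts, or 4.14 CPM, equal to 0.0822% of the stromal level. Col2a1 is itself a gate gene, so leaving out such cells removes its highest values by construction. With at least 1 Cd79a count and no gate gene at 10, young levels were 5.22 CPM for Col2a1, 1.09 for Col9a1, 1.87 for Col9a2, 2.84 for Col11a1 and 2.10 for Col11a2. Under that rule 732 aged cells held 0 counts of Col2a1 and Col11a1, which allows up to 0.428 CPM. The aged stromal level of Col2a1, 3.08 CPM, was above this limit for its own library and below the free level of the young one. For Col9a2 the aged stromal level of 1.23 CPM (0.336 to 3.16) stood beside 0.428 CPM in Cd79a cells, and 13 of the 18 aged Col9a2 counts lay in filtered cells with no gate gene at 10, at 1 each.

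**Figure D5:**
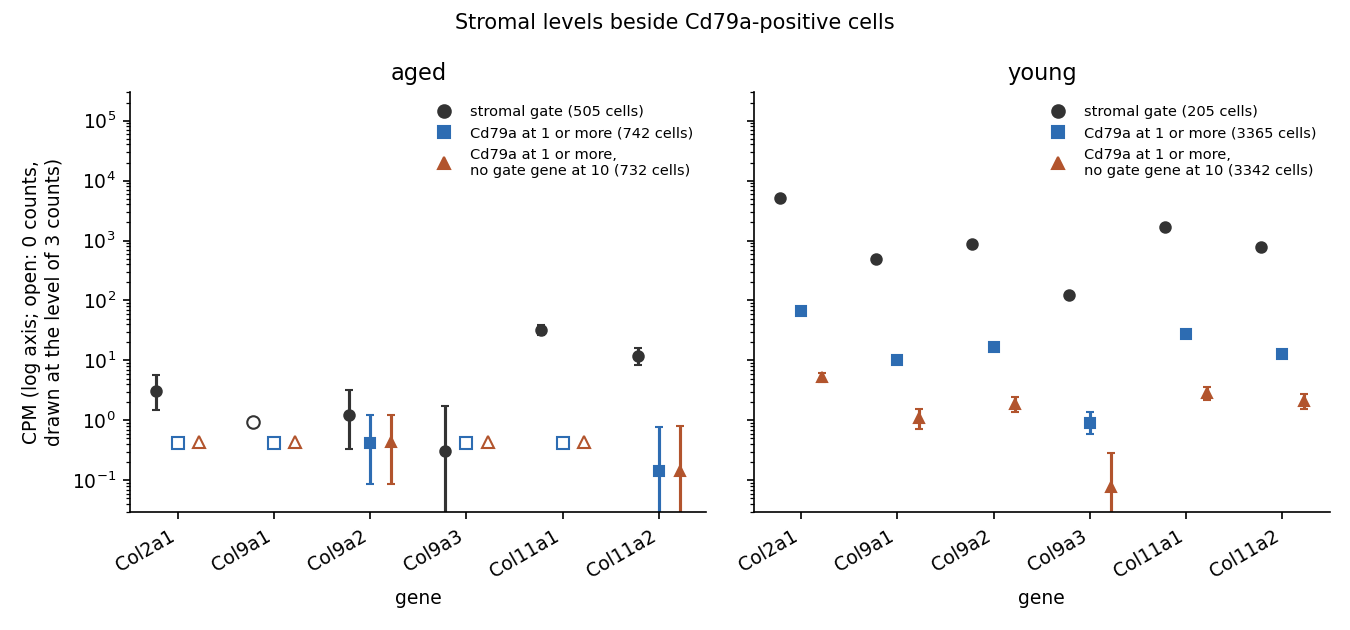
CPM (log axis) of 6 members in stromal cells and in cells with at least 1 Cd79a count, with and without those holding a gate gene at 10 counts, for the aged and young library, with 95% counting intervals. Open symbols had 0 counts and are drawn at the level of 3 counts; young stromal levels lie far above the Cd79a levels, while aged Col9a2 and Col9a3 lie near them.

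In the young library between 84.1% (Col11a2) and 93.1% (Col9a3) of each detected member's counts lay in the gate, Col10a1 aside, whose 1 count lay outside. Of all young Col2a1 counts 89.3% were stromal and 8.01% in 35 cells with a gate gene at 10 and a Ptprc count. Of all aged counts 79.5% of Col11a1 but 22.2% of Col9a2, 4 of 18, were stromal, and both aged Col10a1 counts lay outside. Col2a1 is a gate gene, so its counts are capped in cells next to the threshold. In 35 aged and 2 young cells whose highest gate gene had 5 to 9 counts it summed to 1 and 6. In 9 aged and 2 young cells with 10 to 14 it summed to 0 and 10. These 9 and 2 cells also held 1 and 23 counts of Col11a1, and 0 and 32 of Col11a2.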

How the data were processed

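UMI counts per gene and barcode were deposited by the authors for 1 aged and 1 young library, not normalized. Cell Ranger 6.1.1 is named per the submitters' processing notes; for build and gene models, not given in the sources used here. The labels describe no separate animals, so intervals measure counting error only. Barcodes were kept with 500 or more genes and a mitochondrial share up to 20%, doublets were not removed, and the stromal gate (10 counts) was applied to raw counts, so it depends on depth. Counts were summed per gate and scaled to 1000000 UMIs (CPM). Intervals are exact (Poisson for levels, Clopper-Pearson for shares, conditional binomial for ratios, 95%); a gene at 0 in 1 library was set to a floor of 3 counts, and genes with at least 20 summed counts entered the background. Shares were thinned to 2000 UMIs in 1 seeded draw. The expectation over all draws was added after that draw had put Col11a1 in every young cell with Col2a1. Members, gates and gene lists (pathway, hypertrophy, fibrous collagens, cell markers) were chosen with earlier results of these data known. Named genes were the members, the 8 genes most like their sum, the 8 of each list with most counts and those that a count of 5 or fewer holds. Pcolce2, Col1a2, Col6a3 and Pecam1 had no row to match by symbol and were not used. Of 6 listed erythroid genes 5 had a row. Alternatives were the cell filter, gate, scaling (edgeR 4.0.16 TMM, DESeq2 1.42.0 size factors), total, count minimum, thinning depth and Cd79a rule. Both DESeq2 size factors were 1, so that scaling could shift ratios only by the small difference in summed depth. The gates by Chad with Col1a1 and by Cd79a without a gate gene were chosen after seeing the data. The ratio, its interval and the thinning were tested on simulated data. R 4.3.3 and Python 3.11.15 were used, with pandas 2.3.3, scipy 1.17.1, numpy 2.4.6 and matplotlib 3.10.9.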

Additional observations from a re-analysis of the deposited data

How the results depend on the processing

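The 6 measured members stayed at least 2-fold lower in the aged gate under all 14 alternatives, and the summed log2 ratio lay between -8.04 and -7.43 over 12 alternatives, lowest without the 5 cells with most counts (-8.04). Of the pathway list, 24 to 27 genes were lower; 2 were higher without the 5 highest cells, against 4. For young cells with Col2a1 and both collagen XI genes the seeded draw at 2000 UMIs gave 46.1%, and the value was 32.8% at 1000 UMIs, 57.1% at 5000 and 59.0% not thinned. For all 3 collagen IX genes the draw gave 10.8%, against 5.39%, 24.2% and 38.0%, so these shares follow depth. The young Col2a1 level in Cd79a-positive cells was 110 CPM, 65.5 CPM at 1 or more Cd79a counts and 72.6 CPM with a Ptprc count. Without cells holding a gate gene at 10, a rule that uses Col2a1 itself, it was 4.14 CPM at 3 and 5.22 CPM at 1 or more. No cell reached 10 Cd79a counts, so that alternative gave no value. Among 84 single-gene ratios under alternatives all 84 were lower in aged and 12 moved beyond their interval, 9 of them in gates by Chad. No paired analysis was possible because each group has 1 library. With 1 library per age, a difference between libraries and one between ages cannot be told apart, and 5 aged counts of collagen IX limit what can be said of its chains in aged cells.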
